A study of Mus musculus with 8 samples.

Results

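The 8 genes described here encode 5 ligands of the epidermal growth factor (EGF) family, *Areg* (amphiregulin), *Ereg* (epiregulin), *Hbegf* (heparin-binding EGF-like growth factor), *Tgfa* (transforming growth factor-α) and *Btc* (betacellulin), and 3 of the ErbB receptor tyrosine kinases, *Egfr*, *Erbb2* and *Erbb3*. They were chosen by name, with earlier results of these data known, and each matched 1 of the 53465 genes of the count table. All 8 were among the 14301 genes with enough counts to be tested. RNA was sequenced from pancreatic ductal adenocarcinoma (PDAC) cells of KC-shSmad4 mice, in which a Cre driven by *Ptf1a* switches on an oncogenic allele and a reverse tetracycline transactivator (rtTA3) linked to mKate2 from *Rosa26* in pancreatic cells. At *Col1a1* they carry a GFP-linked hairpin (shRNA) that silences *Smad4* in the presence of doxycycline (Dox). All groups share these alleles. Culture with Dox gave the Smad4-off state, and 5 days without it the Smad4-on state. Each state was exposed for 24 h to 100 pM TGFβ1, which activates the pathway, or to 2.5 µM SB505124, which blocks the kinase of the TGFβ type I receptor. This gave 4 groups of 2 libraries, 1 from line B73 and 1 from line B87, both derived from primary pancreatic tumors of male mice and passaged repeatedly in culture to remove other cells. No group without either agent and no line with a control shRNA was analysed here, so activation by TGFβ1 cannot be told apart from inhibition by SB505124, nor *Smad4* restoration from the loss of Dox itself. With 1 library per line and condition, p-values measure only the spread between these libraries.

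EGF family ligands are made as membrane-anchored precursors that metalloproteases of the ADAM family cut free, and they then bind *Egfr* on the same or neighboring cells. *Erbb2* has no known ligand and acts as the preferred partner of the other receptors, and *Erbb3* binds neuregulins, has a weak kinase and couples to PI3K. In the exocrine pancreas, EGFR signaling takes part in acinar-to-ductal metaplasia and in the early steps of neoplasia.

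The 8 libraries held 18389235 to 23440550 counts, so 3 counts, the floor used here, correspond to 0.128 to 0.163 CPM, that is, counts scaled to a common library total. Mitochondrial transcripts took 1.32% to 2.07% of the counts. The targeted gene followed the labels. *Smad4* stood at 33.7 to 35.5 CPM in the 4 Smad4-off libraries and at 97.3 to 117 CPM in the 4 Smad4-on libraries. The 2 ranges did not overlap, and *Smad4* mRNA was still present in the Smad4-off cells. Of 6 TGFβ response genes, 5 were called higher under TGFβ1 in Smad4-on cells and 5 in Smad4-off cells, among them *Skil* (log2 fold changes 2.51 ± 0.0879 and 1.73 ± 0.0857, edgeR adjusted p = 2.62e-05 and 0.000231). The sixth, *Tgfbi*, was called lower in Smad4-on cells, where B73 had 1.46 CPM under SB505124 and 0.051 CPM under TGFβ1 and B87 had 7.61 and 0.357 CPM (edgeR adjusted p = 0.0386), and had no call in Smad4-off cells (adjusted p = 0.404). Of 9 epithelial and ductal markers, keratins 8, 18 and 19 and *Cdh1* (E-cadherin) were detected in every library, whereas *Epcam* stood at only 0.153 to 2.11 CPM. *Cldn4* was at 0 CPM under SB505124 in both *Smad4* states. *Krt7* and *Muc1* varied widely between the lines, at 282 ± 366 and 15.8 ± 16.5 CPM (mean ± SD) in Smad4-off cells under SB505124. Of 6 leukocyte markers, *Ptprc*, *Lyz2*, *Adgre1* and *Cd3e* had at most 3 counts in every library, whereas *Cd68* had 23 to 126 counts (1.17 to 6.28 CPM). Of 5 acinar markers, *Cpa1*, *Ptf1a*, *Pnlip* and *Rbpjl* had at most 3 counts in every library and *Cela1* had 8 to 32. In bulk RNA of this kind, fewer cells of a type and less RNA per cell cannot be told apart.

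The coordinates that follow are on GRCm38, with RefSeq promoter sequence of the same build (GRCm38.p6). Of the ligand genes, 3 lie in 1 cluster on chromosome 5. *Ereg* (chr5:91074622-91093646, + strand) and *Areg* (chr5:91139599-91148432, + strand) are 46.0 kb apart, and *Btc* (chr5:91357261-91402994, - strand) follows beyond 2 genes with at most 4 counts in any library. The cluster spans 375.5 kb when counted from *Epgn* (epigen), a further EGF family ligand whose gene had only 2 to 6 counts per library. *Tgfa* lies at chr6:86195223-86275719 (+ strand), *Egfr* at chr11:16752203-16918158 (+ strand), *Erbb2* at chr11:98412470-98437716 (+ strand) and *Erbb3* at chr10:128567523-128589652 (- strand). Read in the sense direction, no 75-base stretch of any of the 8 genes' transcripts occurred in a transcript of another gene. Matches to the opposite strand were not searched. The 152 bases at the start of *Ereg* are shared with the antisense gene *Gm19610*, which had 19 to 67 counts per library against 238 or more for *Ereg*, and the strand setting of the counting is not given in the sources used here.

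Promoter sequence, taken as the 250 bases before the annotated start, was found for 5 of the 8 genes (*Areg*, *Btc*, *Tgfa*, *Egfr* and *Erbb2*). The 3 printed here belong to genes with a called change below, and *Areg* and *Btc* are neighbors in the ligand cluster with log2 fold changes of 0.23 and −1.79 for TGFβ1 in Smad4-on cells. Capitals mark the cyclic AMP response element (CRE) TGACGTCA, the element bound by CREB and ATF factors. The sequences run 5′ to 3′ on the strand of the gene, from chr5:91139349-91139598 (+ strand) for *Areg*, from chr5:91402995-91403244 (- strand) for *Btc* and from chr11:16751953-16752202 (+ strand) for *Egfr*.
Areg: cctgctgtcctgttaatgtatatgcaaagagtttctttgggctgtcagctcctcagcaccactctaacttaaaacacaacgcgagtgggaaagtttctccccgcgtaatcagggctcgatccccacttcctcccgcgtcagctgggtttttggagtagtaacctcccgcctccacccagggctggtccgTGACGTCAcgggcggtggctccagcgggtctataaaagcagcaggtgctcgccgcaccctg
Btc: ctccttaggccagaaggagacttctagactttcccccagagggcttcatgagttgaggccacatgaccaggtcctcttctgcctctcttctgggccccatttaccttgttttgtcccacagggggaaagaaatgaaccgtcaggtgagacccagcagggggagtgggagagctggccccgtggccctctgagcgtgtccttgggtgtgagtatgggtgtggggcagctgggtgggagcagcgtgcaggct
Egfr: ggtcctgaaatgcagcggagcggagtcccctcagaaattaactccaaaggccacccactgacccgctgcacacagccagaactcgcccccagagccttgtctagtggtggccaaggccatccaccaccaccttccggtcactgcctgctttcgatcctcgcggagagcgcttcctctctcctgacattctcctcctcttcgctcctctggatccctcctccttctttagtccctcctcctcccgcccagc

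Letters of 6 motifs were searched on both strands in these 5 windows and in the same window of all 32851 promoters. The CRE was found once, in *Areg*, starting 61 bases before its start, and it occurs in 1.55% of all promoters. The AP-1 motif TGANTCA (6.75% of promoters) and the SMAD palindrome GTCTAGAC (0.167%) were in none of the 5. The short SMAD motif CAGAC, present in 42.2% of promoters, was found only in *Tgfa*, and its GC-rich form GGCGC (32.0%) only in *Tgfa* and *Erbb2*. The TEAD motif GGAATG (12.6%) was found only in *Erbb2*. A match is a description of the letters and not a binding site, and windows without a match say nothing about the factor.

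The ligands made up an mRNA pool that was dominated by *Areg* and *Hbegf* in every library. Levels of different genes are compared here as CPM per kilobase of exon, using the union of annotated exons. *Areg* had a median of 53.1 CPM per kilobase (range 24.9 to 118 over 8 libraries) and *Hbegf* a median of 38.1 (16.2 to 112). *Erbb2* followed at 16.4 (13.5 to 18.6) and *Egfr* at 8.17 (4.58 to 14.7). Below them came *Tgfa* at 5.74, *Ereg* at 4.81 and *Btc* at 4.65, and *Erbb3* was lowest at 1.01 (0.0931 to 4.64). Neighbors in this order overlapped in their ranges. *Areg* exceeded *Hbegf* in 5 of 8 libraries, *Tgfa* exceeded *Ereg* in 5 and *Ereg* exceeded *Btc* in 5, so these neighbors were not separated, whereas *Btc* was above *Erbb3* in all 8. The order of the first pair depended on the exon length assigned to *Hbegf*. With the transcript length of the count table the median of *Hbegf* rose to 77.5 CPM per kilobase, above *Areg*.

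**Figure D1:**
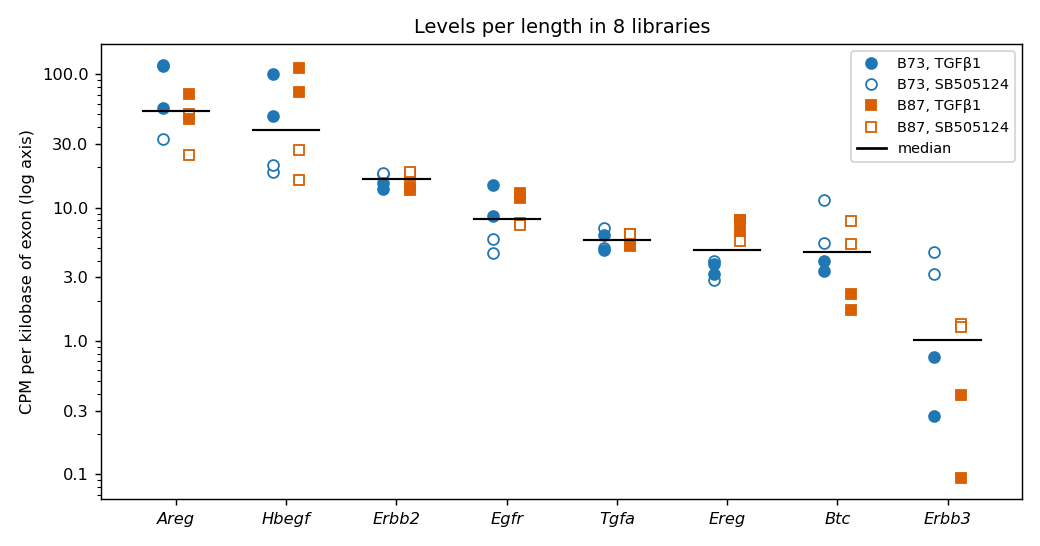
Levels of the 8 genes in CPM per kilobase of exon (log axis), 1 point per library, with circles for line B73, squares for line B87, filled points for TGFβ1, open points for SB505124 and a bar at the median. *Areg* and *Hbegf* have the highest medians (53.1 and 38.1), *Erbb2* runs from 13.5 to 18.6, and *Erbb3* falls to 0.0931.

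*Areg*, a ligand of EGFR known for its role in epithelial growth, was the higher in the Smad4-on cells of each line. In B73, its level was 39.5 CPM in Smad4-off and 141 CPM in Smad4-on cells under SB505124, and 68.3 and 143 CPM in the same order under TGFβ1. In B87, the corresponding levels were 30.3 and 60.8 CPM under SB505124 and 55.6 and 85.6 CPM under TGFβ1. Under either agent, every Smad4-on library stood above every Smad4-off library. The rise under SB505124 was called, with a log2 fold change of 1.44 ± 0.214 (SE; 2.72-fold; edgeR quasi-likelihood test with cell line in the model, Benjamini-Hochberg adjusted p = 0.0274), and it measured 1.84 within B73 and 1.00 within B87. Calls, here and below, needed an adjusted p under 0.05 together with a change of more than 2-fold. *Areg* was the only 1 of the 8 genes called higher in this comparison, in which 0.636% of all tested genes were called higher and 0.455% lower. The call was lost in edgeR without the line in the model (adjusted p = 0.679, no replicate block) and when any of 3 of the 4 compared libraries was left out, namely B73 Smad4 off (adjusted p = 0.216), B73 Smad4 on (0.0801) or B87 Smad4 off (0.0827). Under TGFβ1, the log2 fold change of *Areg* was 0.83 ± 0.208 and did not pass (edgeR adjusted p = 0.0612).

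Between the agents, *Areg* was higher under TGFβ1 than under SB505124 in Smad4-off cells by a log2 fold change of 0.84 ± 0.212 (1.79-fold, edgeR adjusted p = 0.0453), which passed the test but stayed under the 2-fold limit. In Smad4-on cells the log2 difference between TGFβ1 and SB505124 was 0.23 ± 0.205 (edgeR adjusted p = 0.435). In B73 the pair of Smad4-on libraries was at nearly the same level, 141 and 143 CPM. The difference between these responses, tested as the interaction of *Smad4* state and treatment, was −0.61 ± 0.295 and did not pass (edgeR adjusted p = 0.54).

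*Hbegf* (chr18:36504929-36515805, - strand), a ligand that binds heparan sulfate and activates EGFR and ErbB4, had the largest log2 rise of the 8 under TGFβ1. In B73, it stood at 90.0 CPM in Smad4-off and 100 CPM in Smad4-on cells under SB505124, and at 237 and 490 CPM under TGFβ1. In B87, it stood at 131 and 78.3 CPM under SB505124 and at 354 and 539 CPM under TGFβ1. All 4 TGFβ1 libraries were above all 4 SB505124 libraries, and within TGFβ1 the pair of Smad4-on libraries was above the pair of Smad4-off libraries. In Smad4-on cells *Hbegf* was higher under TGFβ1 by a log2 fold change of 2.51 ± 0.225 (5.7-fold, edgeR adjusted p = 0.000394), 2.29 in B73 and 2.78 in B87. In Smad4-off cells the rise was 1.42 ± 0.217 (2.67-fold, adjusted p = 0.00827), with 1.40 and 1.43 in the lines. This second call was lost without the line in the model (edgeR adjusted p = 0.0689, no replicate block) and without the B87 library of TGFβ1-treated Smad4-off cells (adjusted p = 0.0805).

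For *Smad4* state, the log2 fold change of *Hbegf* was 0.82 ± 0.213 under TGFβ1 (edgeR adjusted p = 0.0701) and −0.28 ± 0.217 under SB505124 (adjusted p = 0.666), neither of them called. The interaction was 1.10 ± 0.302, of the same sign in both lines (0.89 and 1.35). It had an unadjusted p of 0.00857 in edgeR but an adjusted p of 0.268. DESeq2 with the line in the model called it (adjusted p = 0.0266), and so did edgeR without the filter on low counts (adjusted p = 0.0023). Both settings called more genes of any kind in the interaction than the main fit, which called 8 higher and 19 lower of 14301. DESeq2 called 37 and 99 of 14301, and edgeR without the filter 61 and 223 of 27770.

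*Btc*, a ligand that binds EGFR and ErbB4, moved opposite to *Hbegf* under TGFβ1. In B73, it was at 24.3 CPM in Smad4-off and 51.2 CPM in Smad4-on cells under SB505124, and at 17.9 and 15.1 CPM under TGFβ1. In B87, it was at 24.1 and 36.1 CPM under SB505124 and at 7.62 and 10.2 CPM under TGFβ1. The 4 SB505124 libraries were all above the 4 TGFβ1 libraries. In Smad4-on cells *Btc* fell by 1.79 ± 0.255 on the log2 scale under TGFβ1 (3.47-fold lower, edgeR adjusted p = 0.00248), by nearly the same amount in the lines (−1.76 and −1.81). In Smad4-off cells the change was −1.02 ± 0.255 (2.02-fold lower, adjusted p = 0.0436), −0.44 in B73 and −1.65 in B87. That call lay at both limits. It was lost without the line (adjusted p = 0.336 in edgeR and 0.22 in DESeq2, no replicate block) and on leaving out any of 6 of the 8 libraries, with log2 fold changes from −0.62 without the B87 TGFβ1-treated Smad4-off library to −1.02. *Smad4* restoration under SB505124 gave *Btc* a log2 fold change of 0.81 ± 0.244, with both Smad4-on libraries above both Smad4-off libraries, and did not pass (adjusted p = 0.224).

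*Ereg* and *Tgfa* showed no called change with either *Smad4* or TGFβ1. *Ereg*, which binds EGFR and ErbB4, had 11.9 and 16.5 CPM in Smad4-off and Smad4-on B73 cells under SB505124 and 13.0 and 15.6 CPM under TGFβ1. In B87 it had 23.2 and 33.4 CPM under SB505124 and 27.4 and 33.3 CPM under TGFβ1. Within each line and under each agent the Smad4-on library was the higher, by log2 fold changes of 0.50 ± 0.108 under SB505124 (edgeR adjusted p = 0.0917) and 0.27 ± 0.107 under TGFβ1 (adjusted p = 0.185). The 4 B87 libraries were all above the 4 B73 libraries. *Tgfa*, the EGF-like ligand best known from acinar-to-ductal metaplasia models, spanned only 31.3 to 45.3 CPM over the 8 libraries. Its log2 fold changes lay between −0.22 and 0.24 in the 4 comparisons, with edgeR adjusted p from 0.299 to 0.567.

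**Figure D2:**
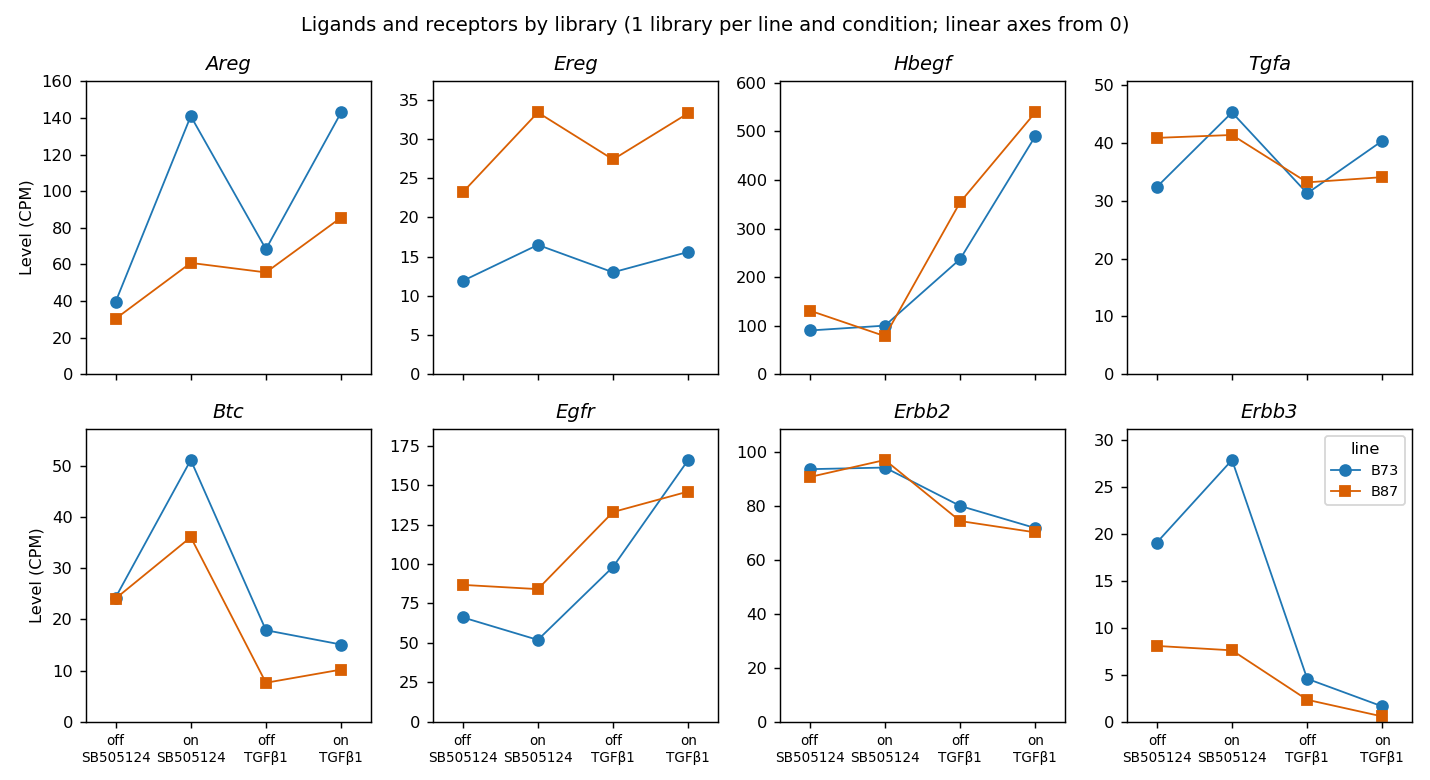
Levels in CPM (linear axes from 0) of the 5 ligand and 3 receptor genes by *Smad4* state and treatment, 1 point per library, with lines joining the 4 libraries of B73 (circles) and of B87 (squares). *Hbegf* and *Egfr* are higher and *Btc*, *Erbb2* and *Erbb3* lower in the TGFβ1 libraries of both lines, and the *Ereg* points of B87 (23.2 to 33.4 CPM) lie above those of B73 (11.9 to 16.5 CPM).

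Summed per kilobase, the 5 ligands rose from 64.4 CPM per kilobase in B73 and 69.3 in B87 (Smad4 off, SB505124) to 232 and 198 (Smad4 on, TGFβ1). *Areg* took 34.6% to 73% and *Hbegf* 13.0% to 56.4% of the sum over the 8 libraries, and *Ereg*, *Tgfa* and *Btc* took at most 9.12% each. *Areg* had its largest share, 73% in B73 and 56.4% in B87, in Smad4-on cells under SB505124. In Smad4-on cells under TGFβ1 the share of *Hbegf* was 43.6% in B73 and 56.4% in B87, against 13.0% and 18.3% under SB505124. With the transcript length of the count table, *Hbegf* took 23.3% to 72.5%, and its share was again higher under TGFβ1 in each line and state.

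**Figure D3:**
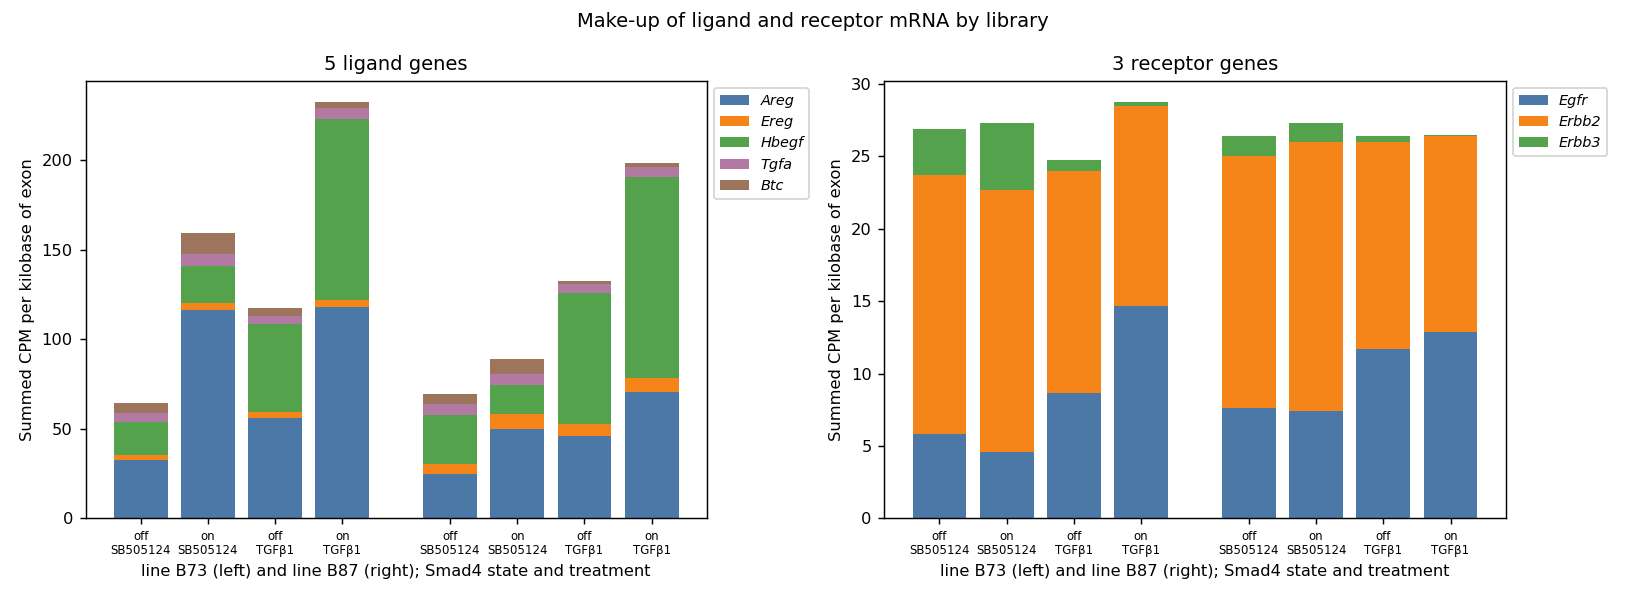
Summed CPM per kilobase of exon of the 5 ligand genes and of the 3 receptor genes in each library, stacked by gene (bars from 0), with B73 on the left and B87 on the right of each panel. The ligand sum runs from 64.4 to 232, and the receptor sum from 24.8 to 28.7 with an increasing share of *Egfr* and a decreasing share of *Erbb3* under TGFβ1.

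*Egfr*, the receptor of all 5 ligands, was called higher under TGFβ1 in Smad4-on cells. In B73, its level was 66.2 CPM in Smad4-off and 51.9 CPM in Smad4-on cells under SB505124, and 98.2 and 166 CPM under TGFβ1. In B87, its level was 86.8 and 84.1 CPM under SB505124 and 133 and 146 CPM under TGFβ1. All TGFβ1 libraries stood above all SB505124 libraries. In Smad4-on cells the rise was called, at a log2 fold change of 1.24 ± 0.191 (2.37-fold, edgeR adjusted p = 0.00334), and was larger in B73 (1.68) than in B87 (0.79). Without the B73 library of TGFβ1-treated Smad4-on cells it was 0.90 (adjusted p = 0.00618), under the 2-fold limit. The call in Smad4-on cells was also lost in edgeR's glmTreat test against 2-fold (adjusted p = 0.367). In Smad4-off cells the log2 fold change was 0.59 ± 0.188 (edgeR quasi-likelihood adjusted p = 0.0872). *Smad4* state gave 0.47 ± 0.187 under TGFβ1 (adjusted p = 0.192) and −0.18 ± 0.189 under SB505124 (adjusted p = 0.757), and the interaction of 0.65 ± 0.267 did not pass (adjusted p = 0.458).

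*Erbb2*, the partner receptor, had the smallest ratio of highest to lowest level over the 8 libraries (1.38, against 1.45 for *Tgfa*). In B73 it stood at 93.5 and 94.1 CPM in Smad4-off and Smad4-on cells under SB505124 and at 79.9 and 71.7 CPM under TGFβ1. In B87 it stood at 90.6 and 96.9 CPM under SB505124 and at 74.3 and 70.1 CPM under TGFβ1. Every TGFβ1 library was below every SB505124 library. In Smad4-on cells the log2 fold change was −0.43 ± 0.077 (1.35-fold lower, edgeR adjusted p = 0.00615), which passed the test without reaching 2-fold, and in Smad4-off cells it was −0.26 ± 0.0767 (adjusted p = 0.0742). *Erbb2* shares 9 bases with the gene *Mien1*, and *Egfros* and *Gm43917*, which overlap *Egfr* and *Tgfa*, had 51 and 12 counts over all 8 libraries.

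*Erbb3*, the receptor of neuregulins, showed the largest change of the 8 genes. In B73, it had 19.1 CPM in Smad4-off and 27.9 CPM in Smad4-on cells under SB505124, and 4.58 and 1.63 CPM under TGFβ1. In B87, it had 8.08 and 7.61 CPM under SB505124 and 2.34 and 0.56 CPM under TGFβ1, the last from 11 counts. All TGFβ1 libraries lay below all SB505124 libraries, and under TGFβ1 both Smad4-on libraries lay below both Smad4-off libraries. In Smad4-on cells under TGFβ1 *Erbb3* fell by 3.93 ± 0.281 on the log2 scale (15.2-fold lower, edgeR adjusted p = 0.000191). In Smad4-off cells the change was −1.95 ± 0.242 (3.85-fold lower, adjusted p = 0.00416), a call that was lost without the line in the model (adjusted p = 0.299 in edgeR and 0.107 in DESeq2, no replicate block).

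*Erbb3* was also the only 1 of the 8 genes called for *Smad4* state under TGFβ1. Its log2 fold change was −1.72 ± 0.298 (3.3-fold lower in Smad4-on cells, edgeR adjusted p = 0.0211), with −1.44 in B73 and −1.89 in B87. In that comparison 1.31% of all tested genes were called higher and 1.8% lower. The call did not hold without the line (adjusted p = 0.483 in edgeR and 0.315 in DESeq2, no replicate block), nor when any of the 4 compared libraries was left out, B73 Smad4 off (0.0714), B73 Smad4 on (0.138), B87 Smad4 off (0.0929) or B87 Smad4 on (0.0859). Under SB505124 the log2 fold change was 0.26 ± 0.22 (adjusted p = 0.694). The interaction, −1.98 ± 0.371, had the same sign in the lines (−1.98 and −1.81) and an edgeR adjusted p of 0.138. It was called by DESeq2 with the line (adjusted p = 0.00668) and by edgeR without the filter on low counts (adjusted p = 0.00122). As given for *Hbegf*, both settings called more genes of any kind than the main fit.

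*Cdh1* and *Krt19*, 2 of 9 epithelial and ductal markers, moved with *Erbb3*, whereas several other markers of that list did not. Group means of *Krt19* were 737 and 1150 CPM in Smad4-off and Smad4-on cells under SB505124. Under TGFβ1 they were 299 and 226 CPM, so the 4 group means ranked as those of *Erbb3*. *Cdh1* had 325, 468, 185 and 109 CPM in B73 and 149, 80.5, 63.9 and 11.5 CPM in B87, in the order Smad4 off and on under SB505124, then off and on under TGFβ1. Within each line the 4 conditions ranked alike for *Cdh1* and *Erbb3*. *Cdh1* fell by 2.31 ± 0.458 on the log2 scale under TGFβ1 in Smad4-on cells (edgeR adjusted p = 0.00936), and the log2 fold change of *Krt19* was −2.33 ± 0.215 (adjusted p = 0.000454). Over the whole list of 9 epithelial and ductal markers, 4 had a positive log2 fold change there, 1 was called higher and 2 lower. Mean levels of *Krt8*, *Krt18*, *Sox9* and *Cldn4* were 1090, 1070, 33.2 and 0 CPM in Smad4-on cells under SB505124. Under TGFβ1 they were 1320, 1590, 58.1 and 24.7 CPM. The summed level of the list was 1690 to 6210 CPM in Smad4-on cells under SB505124 and 1220 to 5850 CPM under TGFβ1. Of 4 endothelial markers 3 exceeded 3 counts in some library, with *Tek* below. Their sum was 7.24 to 26 CPM in Smad4-off and 3.41 to 4.79 CPM in Smad4-on cells under TGFβ1, where *Kdr* (the VEGF receptor 2 gene) was called lower in Smad4-on cells (−3.35 ± 0.312 on the log2 scale, edgeR adjusted p = 0.00289). *Cdh5* (VE-cadherin), the other endothelial marker tested, had the opposite sign there, at 0.985 and 2.75 CPM in Smad4-off and Smad4-on cells of B73 and 0.796 and 2.04 CPM in those of B87, and did not pass (1.42 ± 0.382, adjusted p = 0.0761). For TGFβ1 against SB505124, *Cdh5* was called higher in Smad4-off and Smad4-on cells (edgeR adjusted p = 0.0117 and 0.00177), from at most 4 counts in each SB505124 library. *Kdr* was called higher in Smad4-off cells (2.02 ± 0.284, adjusted p = 0.00615), whereas in Smad4-on cells it measured 0.13 ± 0.353 (adjusted p = 0.811). The part of these markers in the *Erbb3* result was not tested.

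**Figure D4:**
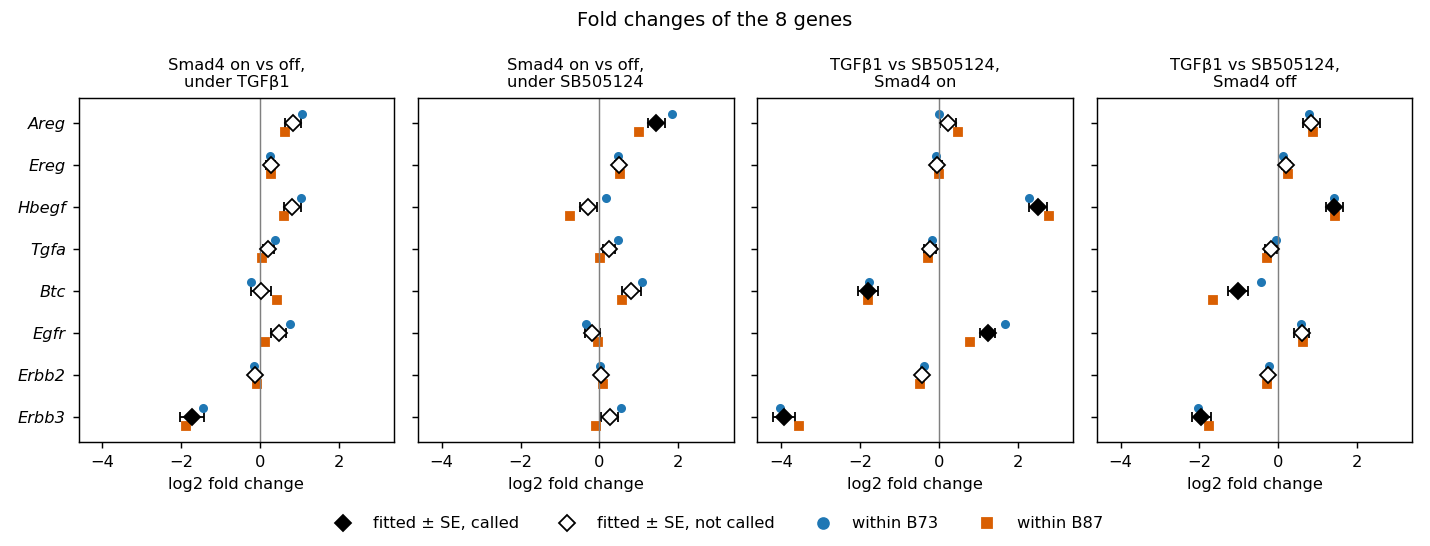
Log2 fold changes of the 8 genes in the 4 comparisons, with black diamonds for the fitted value ± SE (filled where called), circles for the change within B73 and squares within B87. *Hbegf* (2.51 and 1.42) lies to the right and *Btc* and *Erbb3* to the left of 0 in both TGFβ1 comparisons, and *Areg* (1.44) is the called gene for *Smad4* under SB505124.

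Counted together, 2 of the 8 genes were called higher (*Hbegf* and *Egfr*) and 2 lower (*Btc* and *Erbb3*) for TGFβ1 in Smad4-on cells, where 5.62% of all tested genes were called higher and 8.31% lower. In Smad4-off cells 1 was called higher (*Hbegf*) and 2 lower (*Btc* and *Erbb3*), against 3.11% and 2.82% of all tested genes. The 8 were chosen with earlier results of these data known, so these counts are a description and measure no excess. The 2 TGFβ1 comparisons use separate libraries, whereas each shares its libraries with the *Smad4* comparisons. The median log2 fold change of the 8 genes was 0.24 for *Smad4* under TGFβ1 (all tested genes −0.007), 0.25 under SB505124 (0.003), −0.13 for TGFβ1 in Smad4-on cells (−0.019) and 0.002 in Smad4-off cells (−0.017). None of the 8 was called in the interaction by edgeR, where 0.189% of all tested genes were called. Of the 8, *Hbegf*, *Egfr* and *Erbb3* had an unadjusted p under 0.05, as did 1493 of the 14301 tested genes. DESeq2 called 2 of the 8 with the line in the model and 0 without it. Over all tested genes it called 37 higher and 99 lower with the line, and 16 and 24 without it.

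The lines themselves differed in *Ereg* and *Erbb3*. *Ereg* was higher in B87 by a log2 fold change of 1.04 ± 0.0763 (2.05-fold, edgeR adjusted p = 0.000279), close to the 2-fold limit, and *Erbb3* was lower in B87 by 1.42 ± 0.178 on the log2 scale (2.67-fold lower, adjusted p = 0.00232). These were 2 of the 8 genes, where 8.37% of all tested genes were called between the lines. *Areg* was lower in B87 by less than 2-fold (−0.66 ± 0.148, adjusted p = 0.0229). This compares B73 with B87 and no wider groups. Epithelial markers moved the same way, with 6 of the 9 called lower in B87, among them *Krt7* (−4.86 ± 0.233, edgeR adjusted p = 4.88e-05), and a summed level of 1220 to 2110 CPM in B87 against 3970 to 6210 CPM in B73. Of 6 fibroblast markers, *Dcn*, *Lum* and *Thy1* had at most 3 counts in every library and *Pdgfra* and *Pdgfrb* were called higher in B87 (2.63 ± 0.225 and 4.64 ± 0.597 on the log2 scale, adjusted p = 0.000466 and 0.00255). *Col3a1*, the remaining fibroblast marker, was not called between the lines, and its group means ran from 5.09 to 37.7 CPM. The summed fibroblast list, *Col3a1* included, ran from 25.4 to 65.2 CPM in B87 and from 2.5 to 36.2 CPM in B73. The part of these differences in the levels of *Ereg* and *Erbb3* was not tested.

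None of the 8 genes differed between the lines in its response by edgeR's test. For the response to TGFβ1, averaged over *Smad4* states, none had an unadjusted p under 0.05, DESeq2 called none of the 8, and edgeR called 0% of all tested genes although 1198 had an unadjusted p under 0.05. For the response to *Smad4*, averaged over treatments, 0.392% of all tested genes and none of the 8 were called by edgeR, and DESeq2 called none of the 8. In that test *Areg* (−0.64 ± 0.175, adjusted p = 0.255), *Hbegf* (−0.66 ± 0.173, 0.234), *Tgfa* (−0.40 ± 0.149, 0.434) and *Erbb3* (−0.67 ± 0.258, 0.453) had an unadjusted p under 0.05, each with the smaller or more negative *Smad4* response in B87. Of all 14301 tested genes, 1408 had an unadjusted p under 0.05 in the same test.

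The wider pathway was read from 63 other genes in 5 lists, of which 60 were tested. Of these, 8 were called higher and 4 lower for TGFβ1 in Smad4-on cells (median log2 fold change 0.162), where 5.62% of all tested genes were called higher and 8.31% lower. The counts in Smad4-off cells were 3 higher and 1 lower (median 0.082), against 3.11% and 2.82% of all tested genes. For *Smad4*, 5 were called higher and none lower under TGFβ1 (median 0.124), against 1.31% and 1.8% of all tested genes, and 2 higher and none lower under SB505124 (median 0.021), against 0.636% and 0.455%. In each of the 4 comparisons the share of the 60 called lower was below that of all tested genes and the share called higher was above it. That is a description and was not tested. The lists were chosen with earlier results of these data known, and the 4 comparisons share libraries. For the interaction, edgeR called none of the 60, although 14 had an unadjusted p under 0.05, against 1493 of the 14301 tested genes. DESeq2 called 2 of the 60 with the line and 1 without it.

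Among 9 shedding proteases and cofactors, *Adam17* and *Adam10*, the main sheddases of EGF family ligands, were expressed at 76.3 to 105 and 158 to 224 CPM. *Adam17* was lower under TGFβ1 in Smad4-on cells by less than 2-fold (log2 fold change −0.32 ± 0.0734, edgeR adjusted p = 0.0167), and *Adam10* did not pass (−0.16 ± 0.144, adjusted p = 0.419). *Adam12*, a metalloprotease that can also cut *Hbegf* protein, had 12.8, 24, 36.1 and 155 CPM in B73 and 14.7, 39.5, 61.1 and 174 CPM in B87, in the order Smad4 off and on under SB505124, then off and on under TGFβ1. It increased in the same order in the lines and was called in all 4 comparisons, with log2 fold changes of 1.81 ± 0.168 for *Smad4* under TGFβ1 (edgeR adjusted p = 0.00287), 1.18 ± 0.179 under SB505124 (0.0296), 2.41 ± 0.173 for TGFβ1 in Smad4-on cells (0.000192) and 1.78 ± 0.178 in Smad4-off cells (0.00202). *Adam19* was called higher in Smad4-on cells under both agents (2.59 ± 0.413 under TGFβ1 and 3.10 ± 0.511 under SB505124, edgeR adjusted p = 0.016 and 0.0398), from levels under 3 CPM in every Smad4-off library.

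Genes that restrain the receptors were led by *Errfi1* (MIG6), which binds and inhibits the EGFR kinase. It had 114 to 143 CPM in the 4 SB505124 libraries and 408 to 600 CPM in the 4 TGFβ1 libraries, which did not overlap. Under TGFβ1 it was higher by 2.27 ± 0.123 on the log2 scale in Smad4-on cells (edgeR adjusted p = 9.61e-05) and by 1.68 ± 0.121 in Smad4-off cells (adjusted p = 0.000728). *Cblb*, a ubiquitin ligase that marks active receptors for degradation, rose by 1.5 ± 0.112 in Smad4-on cells (adjusted p = 0.000216). *Lrig1*, a membrane protein that lowers ErbB receptor levels, passed the test there under 2-fold (0.96 ± 0.16, adjusted p = 0.00458) and was 1.13 ± 0.114 higher in B87 than in B73 (adjusted p = 0.00095).

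Of 17 adaptors and members of the Ras-MAPK core, *Map2k1* (the kinase MEK1) was the only 1 called, from 116 CPM in Smad4-on cells of each line under SB505124 to 353 CPM in B73 and 382 CPM in B87 under TGFβ1 (log2 fold change 1.66 ± 0.123, edgeR adjusted p = 0.000216). Of 16 genes known to respond to ERK, *Dusp5* (a phosphatase of ERK; 2.32 ± 0.166, adjusted p = 0.000192), *Ier3* (2.26 ± 0.139, 0.000114) and *Phlda1* (1.30 ± 0.123, 0.000503) were called higher and *Spry1* (a feedback inhibitor of receptor tyrosine kinase signaling; −1.54 ± 0.265, 0.00524) lower under TGFβ1 in Smad4-on cells. *Dusp6*, another ERK phosphatase, did not pass (−0.11 ± 0.146, adjusted p = 0.618), nor did *Spry4* (−0.49 ± 0.182, 0.0819) or *Fosl1* (0.14 ± 0.0778, 0.199), so the ERK-responsive list held changes in both directions around a median of 0.149. For *Smad4* under TGFβ1, *Dusp5* and *Ier3* were called higher as well (1.35 ± 0.16 and 1.03 ± 0.133, adjusted p = 0.00635 and 0.00792).

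The ligands that were not chosen were low, with 1 exception. *Nrg1* (neuregulin 1), a ligand of *Erbb3*, had 22 to 32.4 CPM under SB505124 and 41.8 to 62.5 CPM under TGFβ1, and passed the test in Smad4-on cells under 2-fold (0.90 ± 0.109, edgeR adjusted p = 0.00132), opposite in sign to its receptor. *Erbb4*, the fourth receptor of the family, had at most 0.108 CPM in any library. *Egf* and *Nrg2* were called lower for TGFβ1 in Smad4-on cells at levels of at most 2.02 and 4.35 CPM, and with *Cblc* and *Fos*, whose mean level was as low, they were named after their values were seen.

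**Figure D5:**
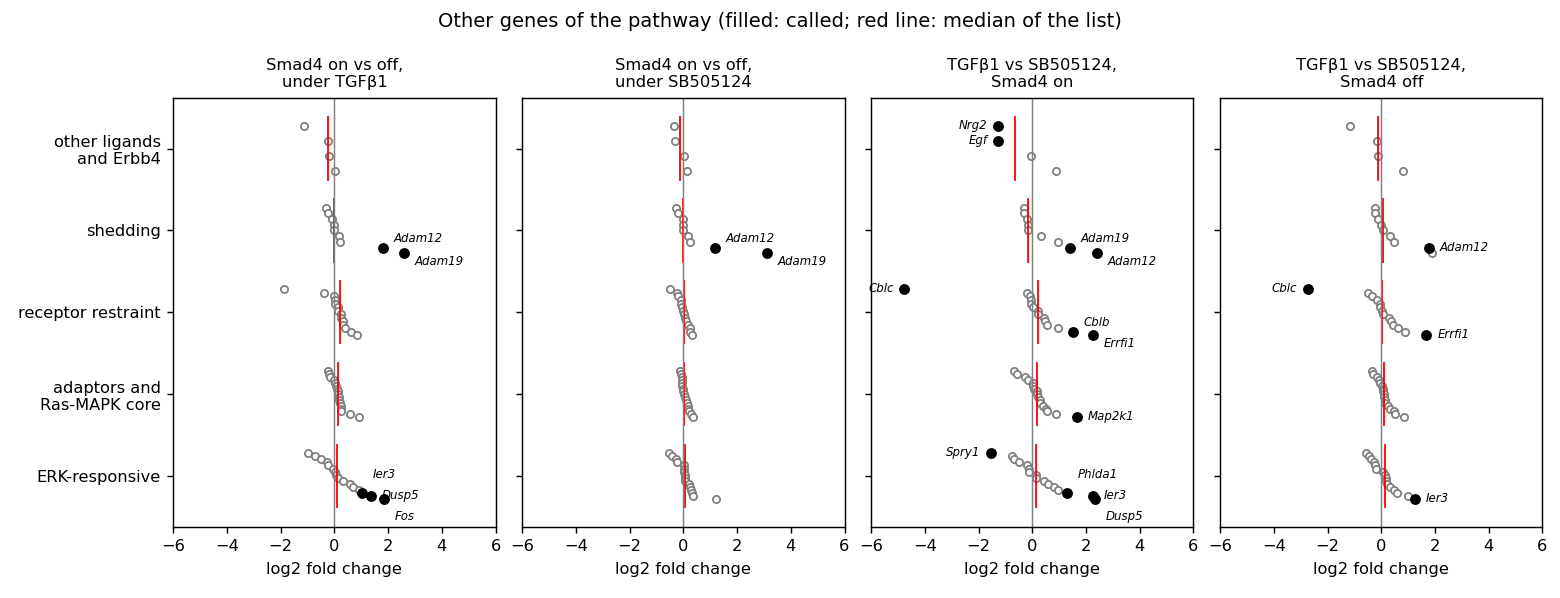
Log2 fold changes of the 60 other tested pathway genes in the 4 comparisons, by list, with filled points and names for called genes, open points for the rest and a red line at the median of each list. *Adam12* is called in all 4 panels, *Errfi1* and *Ier3* in both TGFβ1 panels, and list medians lie between −0.648 and 0.221.

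The genes whose log2 CPM over the 8 libraries was most like that of each of the 8 were sought among 11099 genes with a mean log2 CPM of at least 1. Pearson's r is given as a description, and the 8 points share lines, treatments and *Smad4* states. For *Hbegf* these were *Clint1* (r = 0.997), *Rnf11* (0.995) and *Lif* (0.99), and for *Erbb3* they were *Pik3c2b* (0.992), *Hsd17b14* (0.991) and *Gpd1l* (0.99). *Btc* was most like *Klf5* (0.982), *Zfp40* (0.98) and *Otud1* (0.978), *Egfr* like *Afap1* (0.983), *Arl15* (0.982) and *Trip10* (0.977), and *Erbb2* like *Mxd3* (0.994), *Keap1* (0.992) and *Creg1* (0.99). *Areg* was most like *Dpp9* (0.977), *Fam84a* (0.976) and *Cdc42bpb* (0.975), *Ereg* like *Pde4b* (0.987), *Atp5d* (0.983) and *Prkd1* (0.982), and *Tgfa* like *Rnf39* (0.981), *Anapc15* (0.975) and *Mars2* (0.962). None of the 8 was among another's 3 most alike genes, a search that ranked positive correlations only. Among the 8 themselves, r was 0.9 for *Hbegf* with *Egfr* and 0.91 for *Erbb2* with *Erbb3*. It was −0.95 for *Egfr* with *Erbb3* and, rounded, −1 for *Hbegf* with *Erbb2*. For *Areg* with each of the others it lay between −0.36 and 0.38.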

How the data were processed

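RNA was measured in 8 libraries of mouse PDAC lines, grouped by the line, Dox state and treatment that the sample labels name. The authors made stranded poly(A) libraries, sequenced single-end 75-base reads, trimmed them with Trimmomatic 0.36, aligned them to GRCm38 (mm10) with STAR 2.5.3a and counted them per gene with featureCounts 1.6.3, with FastQC 0.11.5 for quality control, per the submitters' processing notes. The deposited counts are raw, with 1 column per library. Strand and multi-mapping settings are not given in the sources used here, nor is which of the study's *Smad4* shRNAs each line carries.

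Counts were tested over the whole table with edgeR 4.0.16 (R 4.3.3), with TMM normalization, filterByExpr, the quasi-likelihood F-test and a model of group plus cell line. Each line went through all 4 conditions, so libraries are paired by line. The deviations of paired libraries from their group means correlated at r = 0.642 to 0.774 over 6 pairs of groups. The study used DESeq2 and names no covariate, and DESeq2 1.42.0 with and without the line is an alternative here. SEs were approximated as |log2 fold change|/√F. Changes per line are differences of log2 CPM with a prior count of 2. CPM per kilobase uses GENCODE M21 exons. Floors of 3 counts cover counting error only, since PCR copies cannot be told apart.

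The 8 genes and all lists were chosen with earlier results of these data known. Genes outside the 8 were named by a rule: called, mean log2 CPM of at least 1, and at most 4 per list and comparison, plus the 3 genes most correlated with each of the 8. Uncalled pathway genes were named for their role. Some list genes are not reported here by themselves, and counts over the lists include them. On counts simulated for 13959 genes (Smad4 on against off under TGFβ1), edgeR recovered 94% of genes changed by a log2 fold change of 2 and DESeq2 84.5%, and for TGFβ1 in Smad4-on cells 93% and 85%. The simulation gave every gene the same dispersion, set in advance and not estimated from these libraries. It used an additive line difference, with the change only in Smad4-on TGFβ1 libraries. The simulation therefore gives no recovery rate for smaller changes, for genes of another dispersion or for genes whose response differs between lines. Other alternatives were DESeq2 size factors, filters of 0 or 10 counts, calls by adjusted p alone, glmTreat against 2-fold, fits of the compared libraries alone, other gene lengths and leaving out each library. Figures were drawn with Python 3.11.15.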

Additional observations from a re-analysis of the deposited data

Results flagged for a closer look

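In 3 cases the 2 lines moved in opposite directions in the same comparison, and none of these differences was tested by itself. For *Smad4* under TGFβ1, the log2 fold change of *Btc* was −0.24 in B73 and 0.42 in B87. For *Smad4* under SB505124, that of *Hbegf* was 0.16 in B73 and −0.74 in B87, and that of *Erbb3* was 0.54 in B73 and −0.09 in B87. Each line has 1 library per condition. In all 3 cases the fitted change over both lines was not called.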

How the results depend on the processing

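Each condition has 1 library per line, and the lowest *Erbb3* level rests on 11 counts. Of 840 alternative values for single genes of the 8, 783 kept their direction and their side of the threshold, 33 lost a call, 7 gained one and 17 changed sign without a call on either side. The cause of the changes below was not tested.

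Several calls depended on the pairing by line. With no replicate block, edgeR called 0 of the 8 genes for *Smad4* under TGFβ1, 0 under SB505124, 4 for TGFβ1 in Smad4-on cells and 0 in Smad4-off cells, and DESeq2 called 0, 1, 4 and 1. Calls over all 14301 tested genes fell too. In the same order, edgeR without the block called 16 higher and 20 lower, 1 and 1, 447 and 588, and 121 and 47. With the line it called 188 and 258, 91 and 65, 804 and 1189, and 445 and 403. DESeq2 without the block called 105 and 156, 44 and 53, 558 and 805, and 280 and 199. Of the other pathway genes edgeR without the block called 0, 0, 7 and 1, and DESeq2 called 1 in the interaction. *Btc* had a log2 fold change of −0.01 for *Smad4* under TGFβ1 in both fits without the block.

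Against 2-fold, glmTreat called 0 of the 8 genes for *Smad4* under either agent, 0 for TGFβ1 in Smad4-off cells and 0 between the lines, and 1, 0, 7 and 2 pathway genes in the 4 comparisons in the order above. Of all 14301 tested genes it called 36 higher and 43 lower, 18 and 19, 361 and 521, and 115 and 89. Between the lines it called 247 higher and 323 lower in B87. For TGFβ1 in Smad4-on cells *Egfr* lost its call (glmTreat adjusted p = 0.367). Without the fold rule 12, 30 and 17 pathway genes were called (*Smad4* under TGFβ1, TGFβ1 in Smad4-on cells, TGFβ1 in Smad4-off cells). Of all tested genes, 504 were then called higher and 469 lower, 2235 and 2516, and 996 and 892. Fits of only the compared libraries called 0 of the 8 and 0 pathway genes for *Smad4* under SB505124, where at least 10 counts in every library left 1 pathway gene. Of all genes tested there, these settings called 44 higher and 29 lower of 13658, and 44 and 33 of 11848. With no filter 7 pathway genes were called for TGFβ1 in Smad4-off cells, where 601 of 27770 genes were called higher and 571 lower. In the interaction, DESeq2 with the line called 2 of the 8 and 2 pathway genes, and edgeR with no filter 2 and 3. Of all genes tested, DESeq2 called 37 higher and 99 lower of 14301, and edgeR with no filter 61 and 223 of 27770. The main fit called 8 and 19 of 14301.

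Leaving out each library in turn gave 0 to 1 of the 8 for *Smad4* under TGFβ1 and under SB505124, 3 to 4 for TGFβ1 in Smad4-on cells and 1 to 3 in Smad4-off cells, and 1 to 5, 0 to 2, 9 to 12 and 3 to 5 pathway genes. Changes not called turned sign over these fits for *Smad4* under TGFβ1 (*Btc*, −0.34 to 0.53), for *Smad4* under SB505124 (*Hbegf*, −0.68 to 0.09; *Egfr*, −0.44 to 0.04; *Erbb3*, −0.11 to 0.57), for TGFβ1 in Smad4-on cells (*Areg*, −0.11 to 0.64; *Ereg*, −0.09 to 0.01), in Smad4-off cells (*Tgfa*, −0.39 to 0.04), in the interaction (*Tgfa*, −0.26 to 0.17) and between the lines (*Tgfa*, −0.1 to 0.1).

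The mean level of *Hbegf* was 52.2 CPM per kilobase with the union of exons and 106.0 with the transcript length of the count table, an alternative added after seeing the data. That of *Tgfa* was 5.76 and, with the longest transcript, 8.26.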
